A study of Mus musculus with 2 samples.

Results

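The genes described here are 9 transcription factor genes of the IRF (interferon regulatory factor) and STAT (signal transducer and activator of transcription) families, namely Irf1, Irf2, Irf4, Irf5, Irf7, Irf8, Irf9, Stat2 and Stat3. They were taken by symbol from the 32285 gene rows of each matrix, and all 9 had a row. Immune cells had been sorted from tumors that the mouse colon carcinoma line MC38 formed in wild-type mice, and were profiled by droplet single-cell RNA sequencing. The Control library came from tumors that received no irradiation, and the IR library from tumors collected 4 days after a single dose of 20 Gy. Both were sorted for CD45, the pan-leukocyte protein encoded by Ptprc, from several tumors pooled before library construction, so that each group had 1 library, no replicate and no test across animals. Every difference below compares these libraries, and every interval is a 95% interval that covers counting error only. The sample records also name a narrower population, CD45+CD11b+Ly6Chi, yet both libraries held T cells, NK cells and dendritic cells.

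Type I interferons bind a receptor whose kinases, JAK1 and TYK2, activate STAT proteins. STAT2 and IRF9 are subunits of the resulting complex, called ISGF3, which binds interferon-stimulated response elements (ISRE), and IRF7 is both a target of that complex and a driver of further interferon production. Interferon gamma acts mainly through gamma-activated sequences (GAS), with IRF1 as a classic early target, while IRF4, IRF5 and IRF8 shape myeloid and lymphoid lineages and STAT3 carries signals of interleukin-6 and interleukin-10.

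The promoters are shown first because the ISRE and GAS elements named above are short sequences that can be searched for. A match shows the letters only, and binding was not measured. RefSeq windows on GRCm38.p6, from 250 bases before to 50 bases after each annotated start, were found for all 9 genes and searched on both strands for the ISRE core, which is GAAA and GAAA with 2 free bases (N) between them, and for the GAS motif TTCNNNGAA, which reads the same on either strand. Of 32851 promoter windows, 3.44% held the ISRE core and 8.30% the GAS motif. Among the members, Stat2 and Irf2 held an ISRE core, and Irf1, Irf2 and Irf8 held a GAS motif. The shares above are per window, and Irf1, Irf8 and Irf9 had 2 windows each. The second window of Irf1 and that of Irf8 held neither motif. In Irf2 the GAS motif began 224 bases before the start, close to its ISRE core at 241 bases, and in Irf8 there were 2 GAS motifs, 171 and 153 bases before the start. No match lay in the windows of Irf4, Irf5, Irf7, Irf9 or Stat3, which says only that these letters are not in those windows. The stretches below run 5′ to 3′ on the strand of the gene, the plus strand in each case, with the matched letters in capitals. The Stat2 match is the core read on the opposite strand, and the second Irf8 motif lies in the lower-case part of the stretch shown.
Stat2, ISRE core, chr10:128270256-128270305: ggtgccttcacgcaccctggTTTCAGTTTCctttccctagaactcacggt
Irf2, ISRE core, chr8:46739495-46739533: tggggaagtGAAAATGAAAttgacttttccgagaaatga
Irf1, GAS, chr11:53769904-53769952: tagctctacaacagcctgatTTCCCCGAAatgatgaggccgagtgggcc
Irf8, GAS, chr8:120736167-120736215: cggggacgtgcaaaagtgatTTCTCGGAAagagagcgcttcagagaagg

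Barcodes with at least 1000 UMIs (unique molecular identifiers, each marking 1 captured RNA molecule) and at most 25% mitochondrial UMIs were kept, 4679 in Control and 3411 in IR. Lineages were gated on marker genes, which placed 3813 and 2844 barcodes in a gate. Another 481 and 313 barcodes carried markers of several gates and were left out as mixed, and 385 and 254 fitted no gate. The monocyte gate held 771 Control and 1212 IR cells, the macrophage gate 1969 and 421, the mature dendritic cell (DC) gate 116 and 148, the T cell gate 418 and 284, the NK cell gate 296 and 371, and the stromal gate 93 and 98. These 6 gates had at least 50 cells in both libraries and carry the comparison. Of 2740 Control and 1633 IR barcodes placed as monocyte or macrophage, 77 and 45 lay within 5 UMIs per 10000 of the line between them. Stromal cells were gated on collagen genes, and Ptprc stood at 3.11 CPM (UMIs per 1000000 UMIs of the gate) in Control and 6.49 in IR there, so the sorted protein's RNA was nearly absent from that gate. Only 6 barcodes occurred in both libraries.

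Irf7, the interferon-inducible amplifier of the type I response, was at least 2-fold higher in IR in all 6 gates. In monocytes it stood at 156 CPM in Control (146 to 168) and 541 CPM in IR (528 to 555), a log2 ratio of 1.79 (1.68 to 1.90). Macrophages went from 49.9 to 415 CPM, a log2 ratio of 3.06 (2.94 to 3.17). Of these 6 gates monocytes thus held the highest Irf7 level in both libraries, while the ratio was larger in macrophages, with intervals that did not overlap. Within the macrophage gate the monocyte markers went from 924 to 1561 CPM and the C1q genes from 7891 to 6730 CPM. The part of this shift in the Irf7 ratio was not tested. Mature DCs, marked by Ccr7 and Fscn1, had the lowest Control level at 17.1 CPM (9.58 to 28.2), from 15 UMIs. That interval overlapped those of NK and stromal cells. In IR mature DCs stood at 228 CPM, a log2 ratio of 3.73 (2.99 to 4.59). Monocyte markers in that gate went from 117 to 423 CPM, while the myeloid gene Lyz2 stood at 232 and 238 CPM. The marker set includes interferon-induced genes, which a processing alternative left out. In the 108 Control and 141 IR mature DCs under the Lyz2 limit given below, Irf7 had 13.7 and 217 CPM. The part of the monocyte markers in the mature DC ratio was not tested either. T cells went from 45.0 to 251 CPM and NK cells from 29.6 to 119 CPM, log2 ratios of 2.48 (2.20 to 2.77) and 2.01 (1.64 to 2.39). Stromal cells rose as well, from 30.1 to 194 CPM, a log2 ratio of 2.69 (2.30 to 3.10). In IR the order was monocyte, macrophage, T cell, mature DC, stromal and NK cell, and the neighbours T cell and mature DC, and mature DC and stromal, had overlapping intervals.

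**Figure D1:**
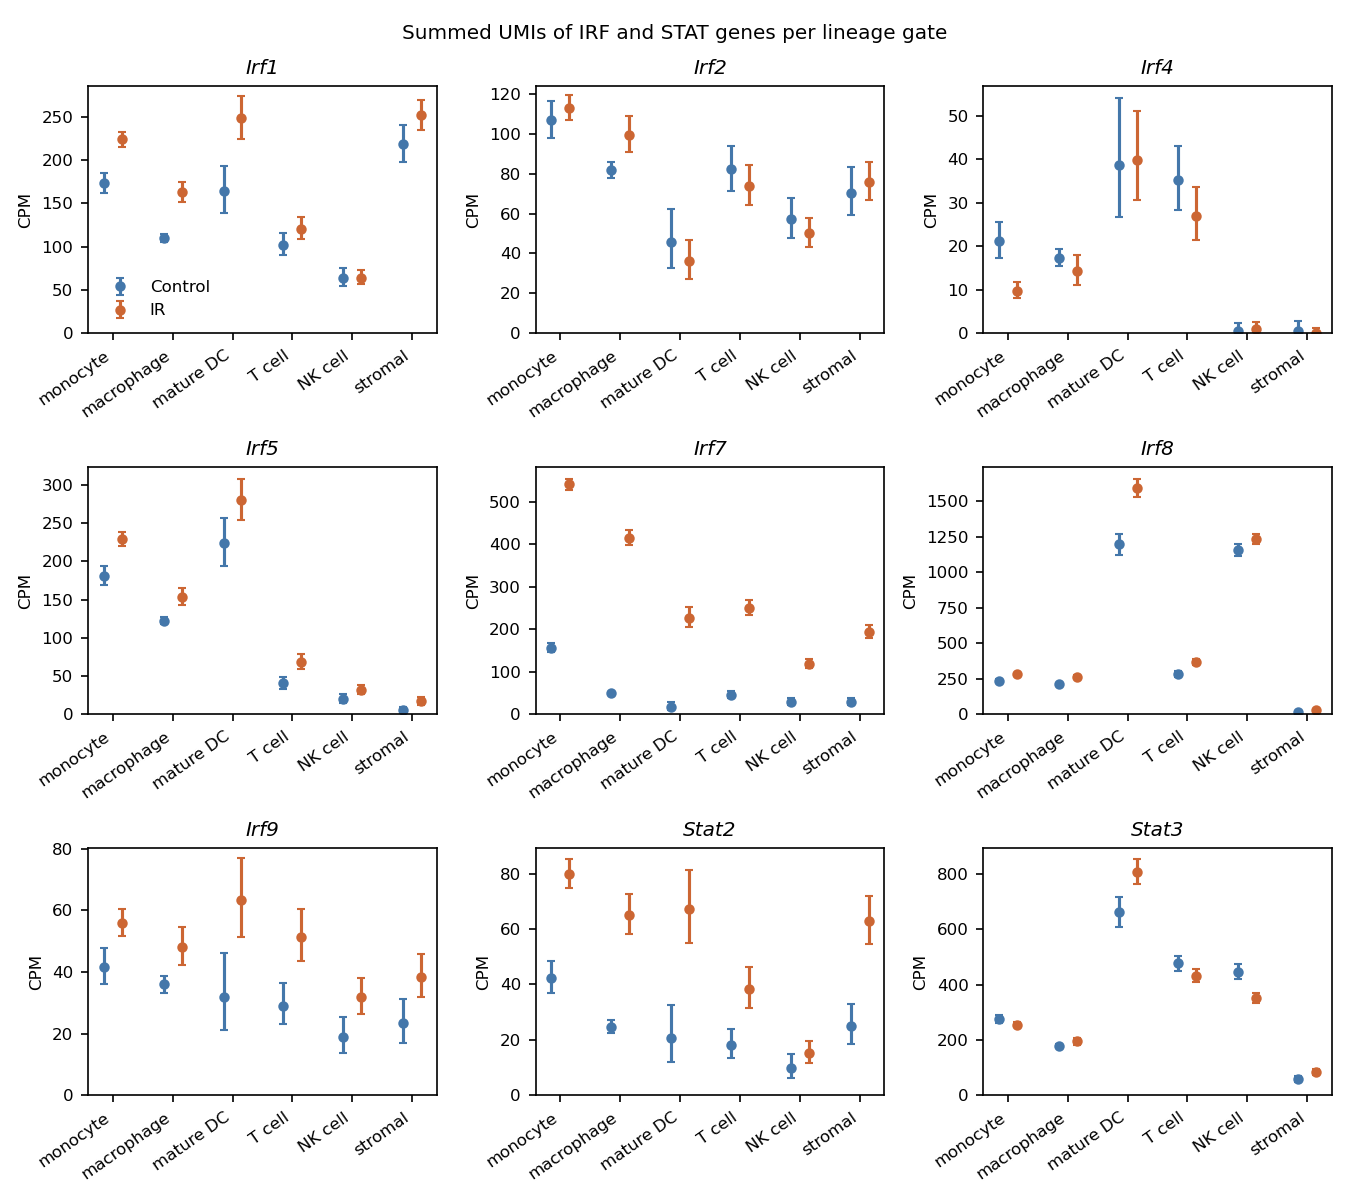
Level of each of the 9 genes (CPM, linear axes from 0, a separate scale for each gene) in the 6 lineage gates, Control in blue and IR in orange. Points are the summed UMIs of 1 library and bars are exact Poisson 95% intervals; Irf7 lies apart between the libraries in every gate, and Irf8 is at 1157 CPM or more in mature DCs and NK cells of both.

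The Irf7 difference was also visible cell by cell. With every cell thinned to 1000 UMIs, 14.3% of Control monocytes (11.9% to 16.9%, exact Clopper-Pearson) and 37.6% of IR monocytes (34.9% to 40.4%) had an Irf7 UMI. Among macrophages the shares were 4.47% (3.60% to 5.48%) and 32.3% (27.9% to 37.0%). The other 4 gates ran from 1.08% to 3.59% in Control and from 11.3% to 20.4% in IR. The intervals of the libraries were apart in T, NK and stromal cells and touched in mature DCs, at 2.59% (0.537% to 7.37%) and 12.2% (7.37% to 18.5%). No gate is known to lack Irf7, so no share could serve as its background. Empty droplets held 69.0 CPM of Irf7 in Control and 342 in IR, and droplet RNA made up an estimated 8.28% and 8.61% of the Irf7 UMIs of monocytes and 15.8% and 6.68% of those of macrophages. Median depths before thinning were 5496 and 7998 UMIs in monocytes and 8743 and 9528 in macrophages, and at full depth 40.6% of Control and 80.5% of IR monocytes had an Irf7 UMI.

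**Figure D2:**
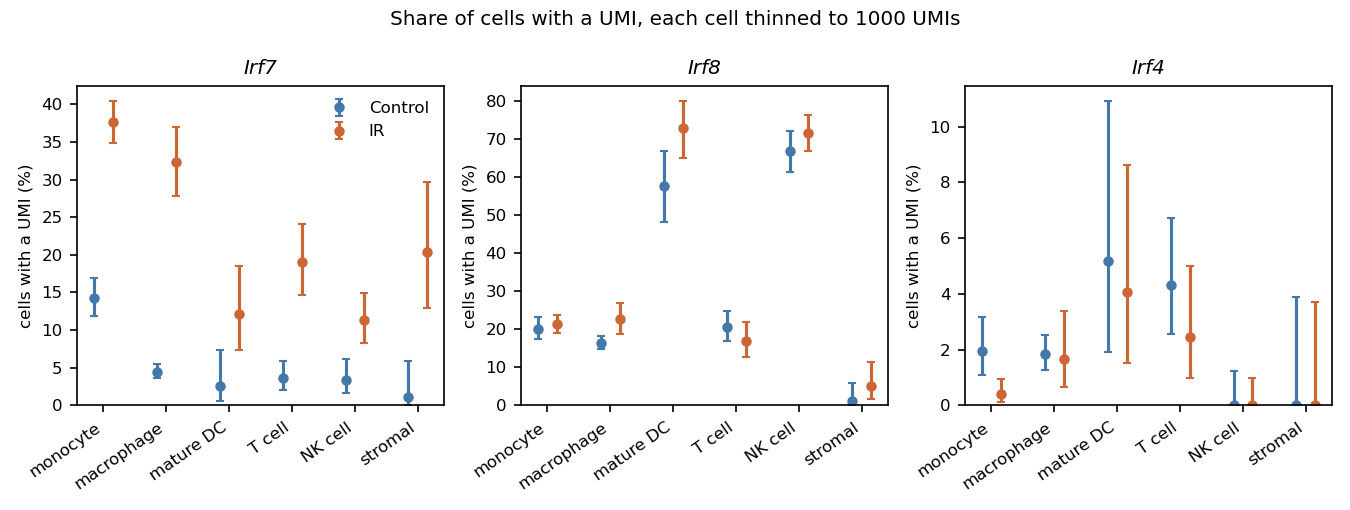
Share of cells with at least 1 UMI (%, axis from 0) of Irf7, Irf8 and Irf4 in each gate after every cell was thinned to 1000 UMIs, Control in blue and IR in orange, with exact Clopper-Pearson 95% intervals. Irf7 goes from 14.3% to 37.6% of monocytes, Irf8 is found in 57.8% or more of mature DCs and NK cells, and Irf4 in no thinned NK or stromal cell.

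Stat2 and Irf9, which encode subunits of ISGF3, both had more CPM in IR in each of the 6 gates, by different amounts. Stat2 stood at 24.7 CPM in Control and 65.2 CPM in IR macrophages, a log2 ratio of 1.40 (1.19 to 1.61). It rose past 2-fold in mature DCs too (20.5 and 67.1 CPM, log2 ratio 1.71), in T cells (18.2 and 38.3 CPM, log2 ratio 1.08) and in stromal cells (24.9 and 62.8 CPM, log2 ratio 1.34). Monocytes had the highest IR level, 42.4 CPM in Control and 80.0 in IR, and their log2 ratio of 0.92 (0.70 to 1.14) was below the 2-fold line. The IR intervals of monocytes and mature DCs overlapped. In NK cells Stat2 had 9.87 and 15.3 CPM, and the intervals overlapped. With every cell thinned to 1000 UMIs the macrophage log2 ratio was 0.73, under the line, and mature DC and stromal cells kept too few Stat2 UMIs to count.

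Irf9, the DNA-binding subunit of ISGF3, passed 2-fold in none of the 6 gates, although its Control and IR intervals were apart in each. Its level was 41.6 CPM in Control and 55.8 CPM in IR monocytes, a log2 ratio of 0.43 (0.20 to 0.66), and the macrophage ratio was 0.42. Mature DCs came closest to the line with 31.9 and 63.2 CPM, a log2 ratio of 0.98 (0.37 to 1.65). The ratios of T cells, NK cells and stromal cells lay between 0.72 and 0.82. Among the processing alternatives the Irf9 log2 ratio ran from 0.67 to 1.92 in NK cells. It ran from 0.89 to 1.07 in mature DCs and from 0.53 to 1.01 in T cells, so the line was crossed there in some settings. In the other gates it stayed under the line.

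Irf1, which interferon gamma induces, differed by less than 2-fold in all 6 gates. Monocytes had 173 and 224 CPM (log2 ratio 0.37, 0.26 to 0.49), macrophages 110 and 163 CPM (0.57, 0.45 to 0.69) and mature DCs 164 and 248 CPM (0.60, 0.32 to 0.88), with no overlap between libraries. In T cells, at 102 and 121 CPM (0.24, 0.01 to 0.47), and stromal cells, at 218 and 251 CPM (0.20, 0.03 to 0.38), the intervals of the levels overlapped while those of the ratio lay above 0. NK cells had 63.9 and 64.3 CPM (0.01, -0.29 to 0.31). The Control stromal gate therefore held the highest Irf1 level of the 6, from cells without appreciable Ptprc RNA. Irf2, an antagonist of IRF1 on shared sites, differed between libraries beyond counting error in macrophages only (81.8 and 99.5 CPM, log2 ratio 0.28, 0.13 to 0.43), and its Control and IR intervals overlapped in the other 5 gates.

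Irf5, which acts downstream of Toll-like receptors in inflammatory myeloid cells, had the same order of gates in both libraries. The order from high to low was mature DC, monocyte, macrophage, T cell, NK cell and stromal, from 224 down to 5.18 CPM in Control and from 280 down to 17.0 CPM in IR, and of all neighbours only Control mature DCs and monocytes had overlapping intervals. The log2 ratio was 0.34 (0.23 to 0.45) in monocytes and 0.33 (0.21 to 0.45) in macrophages. Mature DCs had a like ratio, 0.33 (0.08 to 0.58). The ratio was 0.75 (0.41 to 1.10) in T cells, at 40.5 and 68.1 CPM, and 0.68 (0.18 to 1.20) in NK cells, at 19.7 and 31.6 CPM. Stromal cells passed the 2-fold line, with 10 UMIs in Control and 55 in IR and a log2 ratio of 1.71 (0.73 to 2.85). At doubled gate cutoffs that ratio was 0.88, and thinning left too few UMIs to count. RNA of the droplet background made up at most an estimated 18.8% of the Control and 10.7% of the IR stromal Irf5 UMIs, and its part in the ratio was not tested.

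Irf8, a factor of the cDC1, pDC and monocyte lineages, was highest in mature DCs and NK cells among the 6 gates. In mature DCs the Control level was 1196 CPM (1125 to 1271) and the IR level 1595 CPM (1532 to 1659), a log2 ratio of 0.41 (0.31 to 0.52). NK cells had 1157 CPM (1114 to 1202) and 1235 CPM (1200 to 1270), a log2 ratio of 0.09 (0.02 to 0.16) with overlapping levels, so that mature DCs and NK cells could not be ordered in Control but could in IR. Monocytes stood at 234 and 281 CPM and macrophages at 214 and 261 CPM, with log2 ratios of 0.26 and 0.28. At 1000 UMIs per cell, 66.9% of Control and 71.7% of IR NK cells had an Irf8 UMI, against 1.08% and 5.10% of stromal cells, a lineage not known for Irf8 (median depths before thinning of 6722 and 6813 UMIs in NK cells and 18445 and 31335 in stromal cells). Unthinned, the shares were 95.6% and 98.9% of NK cells and 22.6% and 40.8% of stromal cells.

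The small dendritic gates added to the Irf8 and Irf4 pattern, from few cells. The 18 Control and 10 IR cDC1 (Xcr1 or Clec9a positive) had 1294 and 1181 CPM of Irf8, and the 8 pDC of each library had 2244 CPM (1843 to 2707) and 1313 CPM (1036 to 1641), a log2 ratio of -0.77 (-1.21 to -0.34). The pDC markers that set this gate went from 5991 to 3189 CPM, and neutrophil markers from 0 to 1109 CPM, and their part in the Irf8 ratio was not tested. Of all 12 gates, pDC thus held the highest Control level of Irf8. The 49 Control and 42 IR cDC2 (Cd209a or Flt3 positive) had far less, 99.1 and 194 CPM. Irf4, which is needed for cDC2 function and for plasma cell formation, was arranged the other way, with 85.3 and 59.6 CPM in cDC2 and no UMI in cDC1 of either library, where 3 counts would make 13.03 and 25.7 CPM. The 17 Control B cells had 130 CPM of Irf4 from 24 UMIs.

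In T cells Irf8 had 286 and 370 CPM, a log2 ratio of 0.37 (0.24 to 0.51), but with cells thinned to 1000 UMIs the ratio was -0.19, and 20.6% of Control and 16.9% of IR T cells had an Irf8 UMI. No direction is therefore given for T cells as a whole. The level differed between subsets. Cells with Cd8a or Cd8b1 UMIs and no Cd4 or Foxp3 UMIs (200 in Control, 140 in IR) had 368 CPM (338 to 401) and 465 CPM (433 to 499). Cells with a Foxp3 UMI (60 and 29), the mark of regulatory T cells, had 130 and 134 CPM, and cells with Cd4 alone (47 and 34) had 102 and 143 CPM. CD8 cells were thus above the Foxp3 and the Cd4 cells in each library without overlap. The 8 cells of each library with both Cd4 and Cd8 UMIs had 422 and 507 CPM. Cells with none of these marks (103 and 73) had 226 and 331 CPM. Irf7 had another order in IR, with 425 CPM (362 to 495) in Foxp3 cells, 268 CPM (214 to 331) in Cd4 cells and 218 CPM (196 to 242) in CD8 cells, against 51.9, 23.1 and 33.6 CPM in Control. Foxp3 cells lay apart from the Cd4 and CD8 cells in IR, while the Cd4 and CD8 intervals overlapped. The 8 IR cells with both Cd4 and Cd8 UMIs had 270 CPM of Irf7 (194 to 364), which overlapped the Foxp3 cells. IR cells with none of these marks had 200 CPM (159 to 250). Lyz2, a myeloid gene, stood at 1768 and 1830 CPM in the Foxp3 cells, at 1935 and 1324 CPM in the Cd4 cells and at 1041 and 898 CPM in the CD8 cells, and the part of myeloid RNA in the subset levels was not tested.

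Irf4 was the member that fell past 2-fold in a gate. In monocytes it had 103 UMIs in Control and 114 in IR, or 21.2 CPM (17.3 to 25.7) and 9.79 CPM (8.08 to 11.8), a log2 ratio of -1.11 (-1.51 to -0.72). Macrophages had 17.4 and 14.3 CPM, mature DCs 38.8 and 40.0 CPM and T cells 35.2 and 27.0 CPM, with overlapping intervals in each. NK and stromal cells had at most 4 UMIs in a library. At 1000 UMIs per cell, 15 of 771 Control monocytes (1.95%, 1.09% to 3.19%) and 5 of 1212 IR monocytes (0.413%, 0.134% to 0.960%) had an Irf4 UMI, against 0 of 296 and 0 of 371 NK cells, where exact intervals reach 1.24% and 0.989% and 3 counts would make 1.01% and 0.809%. The IR monocyte share was therefore not distinguishable from a gate without detected Irf4 at this depth. Unthinned, it was 7.65% and 6.77% of monocytes and 0.338% and 0.539% of NK cells, at median depths of 5496 and 7998 UMIs in monocytes and 6722 and 6813 UMIs in NK cells. The fall depended on where the gate was drawn, in that doubled cutoffs gave a log2 ratio of -0.34, and leaving interferon-induced genes out of the monocyte markers gave -0.82. The cDC2 markers in the monocyte gate also went from 211 to 117 CPM, and cDC2 held more Irf4 (85.3 and 59.6 CPM). Their part in the ratio was not tested. Droplet RNA made up an estimated 19.6% and 20.2% of the monocyte Irf4 UMIs, and empty droplets held 22.2 and 14.5 CPM of Irf4.

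Stat3 differed little between libraries and not always in the same direction. In NK cells the Control level was 446 CPM (419 to 474) and the IR level 351 CPM (333 to 371), a log2 ratio of -0.34 (-0.46 to -0.23). Mature DCs, the gate with the highest level, had 662 and 807 CPM (log2 ratio 0.29, 0.14 to 0.43), and stromal cells, the gate with the lowest, had 58.1 and 83.2 CPM (0.52, 0.20 to 0.85). The log2 ratio was -0.11 (-0.20 to -0.02) in monocytes, 0.13 (0.02 to 0.23) in macrophages and -0.14 (-0.26 to -0.03) in T cells, where the intervals of the levels overlapped.

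**Figure D3:**
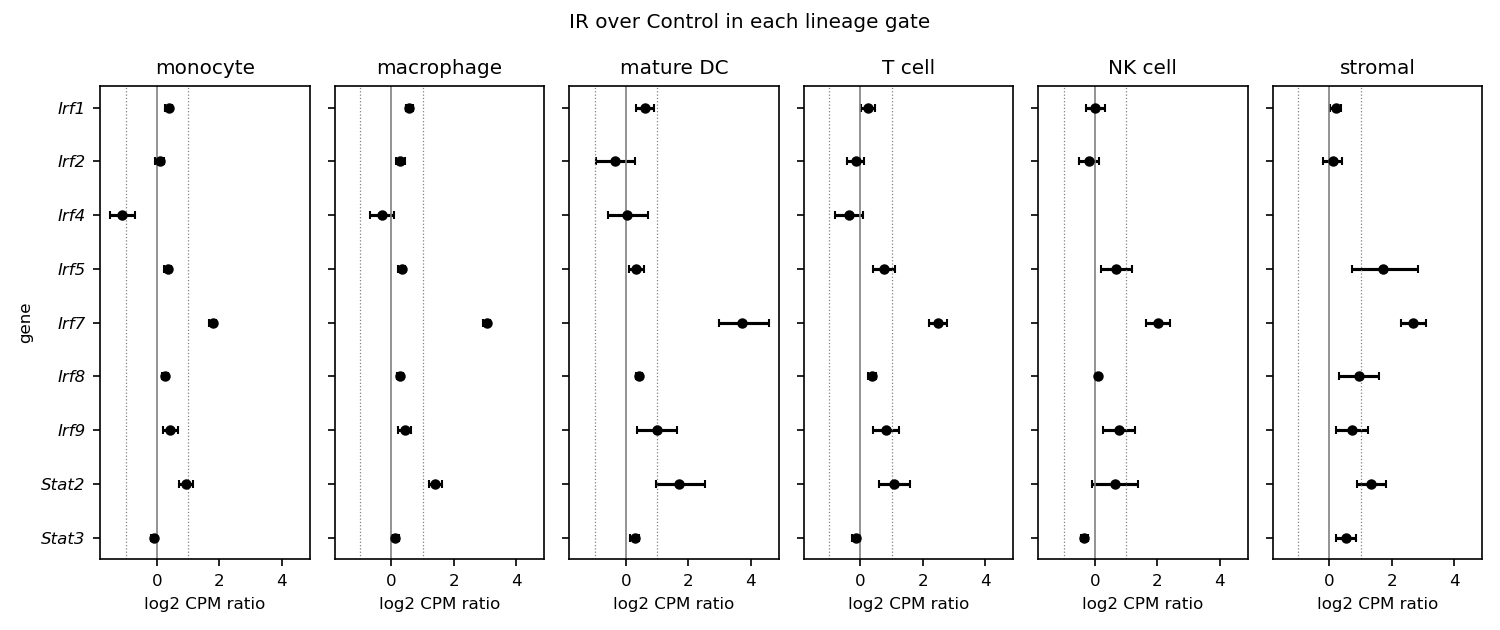
Log2 ratio of CPM, IR over Control, of the 9 genes in each of the 6 gates, with exact conditional 95% intervals; solid lines mark equal levels and dotted lines 2-fold, and genes with fewer than 20 UMIs over both libraries are not drawn. Irf7 lies right of the upper dotted line in all 6 gates and Irf4 lies at -1.11 in monocytes.

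Counted by gate, few members passed 2-fold. In monocytes 1 of 9 was higher and 1 lower, where 3.27% of 10895 genes with at least 20 UMIs were higher and 1.99% lower. In macrophages 2 of 9 were higher (3.35% of all genes) and 0 lower (4.94%), in mature DCs 2 of 9 higher (5.95%) and 0 lower (2.5%), and in T cells 2 of 9 higher (4.16%) and 0 lower (1.94%). NK cells had 1 of 8 counted members higher (3.21%) and 0 lower (1.95%), and stromal cells 3 of 8 higher (3.49%) and 0 lower (2.1%), where Irf4 was too low to count. The median log2 ratio of the members was 0.34 in monocytes, 0.33 in macrophages, 0.41 in mature DCs, 0.37 in T cells, 0.36 in NK cells and 0.83 in stromal cells. Over all counted genes the median lay between -0.07 and 0.07 in the same gates.

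Genes around the members in the pathway were read from 7 lists. Of 14 type I interferon targets with a row (of 16 listed), 10 rose past 2-fold in monocytes, 11 in NK cells and all 14 in each of the other 4 gates, and none fell. Ifit3, an antiviral RNA-binding protein gene, had 15.9 and 151 CPM in monocytes, Oasl1 20.0 and 124 CPM, and Ifit1 26.1 and 161 CPM. The median log2 ratio of the targets was 1.87 in monocytes and 2.91 in T cells. Usp18, which detaches JAK1 from the type I receptor, was the gene of 8 negative regulators that rose in monocytes, from 19.4 to 86.8 CPM (log2 ratio 2.16, 1.86 to 2.49), and it rose past 2-fold in the other 5 gates too, while Socs3 (280 and 436 CPM) and Cish (73.1 and 119 CPM) stayed under the line in monocytes. Of the other IRF and STAT genes listed, 0 of 6 counted in monocytes passed 2-fold in either direction.

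Receptors and their kinases moved less. In monocytes 0 of 12 passed 2-fold, and the largest ratios were those of Il10rb (67.9 and 98.4 CPM), Il6st (27.6 and 19.5 CPM) and Il10ra (80.5 and 111 CPM). In mature DCs 1 of 12 fell past 2-fold (2.5% of all genes). In NK cells 1 of 11 rose past it (3.21% of all genes), and in macrophages, T cells and stromal cells none passed it. Interferon gamma targets had a mixed course. Of 12, 0 rose and 1 fell in monocytes, namely Cxcl9, a T cell attractant, from 570 to 197 CPM (log2 ratio -1.53, -1.61 to -1.45), while Irgm1 had 95.3 and 171 CPM and Igtp 60.7 and 108 CPM. Cxcl9 also fell past 2-fold in macrophages, from 962 to 345 CPM, and stood at 171 and 280 CPM in mature DCs, where 3 of the 12 (Irgm1, Igtp and Iigp1) rose. None of the STAT3 targets passed 2-fold in any of the 6 gates, and in monocytes Socs3, Il4ra (132 and 159 CPM) and Cebpd (54.8 and 46.3 CPM) had the largest ratios.

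Of 6 interferon ligand genes listed, 2 had at least 20 UMIs in monocytes, and interferon beta was rare. Ifnb1 had 0 UMIs in 771 Control monocytes, where 3 counts would make 0.618 CPM, and 41 UMIs in IR monocytes, or 3.52 CPM. These 41 UMIs came from 7 of 1212 cells, and 35 of them from 1 cell, so that no fold is given. In the other gates Ifnb1 had at most 2 UMIs in a library. Ifng, the product of T and NK cells, had 332 and 192 CPM in T cells and 101 and 102 CPM in NK cells. In T cells 184 of the 879 Control UMIs and 125 of the 561 IR UMIs came from 1 cell of each library.

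RNA of myeloid cells was present in the lymphocyte gates. Lyz2 stood at 1126 CPM in Control and 1141 CPM in IR T cells, at 256 and 399 CPM in NK cells, and at 9725 and 7547 CPM in monocytes. Other myeloid genes were higher in the IR lymphocyte gates, with Cd14 at 216 and 462 CPM in T cells and 60.0 and 131 CPM in NK cells. In T cells Csf1r had 67.7 and 108 CPM and the neutrophil markers 5.29 and 204 CPM. The monocyte markers together had 1185 and 2033 CPM there. That set also stood at 1294 CPM in Control NK cells and 4536 CPM in Control B cells, where Lyz2 was 256 and 314 CPM. The set is therefore no measure of myeloid RNA alone. The C1q genes of macrophages went the other way, at 144 and 107 CPM in T cells. If all Lyz2 there were droplet background, that background would account for 34.8% of the Irf7 UMIs of IR T cells and 25.7% of those of IR NK cells. Among barcodes with fewer than 5 Lyz2 UMIs per 10000, Irf7 had 36.5 and 182 CPM in T cells and 29.2 and 91.3 CPM in NK cells, so that it was past 2-fold there as well. In those T cells Stat2 stood at 15.8 and 31.5 CPM, just under the 2-fold line, and Irf5 at 16.3 and 37.5 CPM, above it.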

How the data were processed

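The authors deposited unfiltered UMI counts per gene and barcode for 1 Control and 1 IR library, from 10x Chromium 3′ libraries aligned to mm10. The submitters' processing notes name Cell Ranger 6.0.1, and the matrix headers name Cell Ranger 4. Total counts were 48593879 in Control and 42406461 in IR. Barcodes with at least 1000 UMIs and at most 25% mitochondrial UMIs were gated by the share of their UMIs in marker genes (8 per 10000 for T and stromal cells, 5 for NK cells, 20 for mature DCs) with at least 2 markers detected. Barcodes in more than 1 gate, or with C1q genes at 10 per 10000 or, outside neutrophils, Chil3, Hp and F13a1 at 3, counted as mixed. The rest with 10 per 10000 of either set were monocytes when monocyte UMIs exceeded C1q UMIs and macrophages otherwise. Cutoffs were set after marker shares had been seen, and values of 3 members had been displayed for a trial version of the gates. Doublets were treated only by leaving out mixed barcodes, with Scrublet as an alternative.

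UMIs were summed per library and gate and given as CPM with exact Poisson intervals, ratios with exact conditional and shares with Clopper-Pearson 95% intervals. A member counted as past the line at 2-fold with at least 20 UMIs over both libraries, and where 1 library had 0 UMIs, 3 counts in that library took its place. The 9 members were named in every gate with at least 50 cells in both libraries, and of each pathway list the 3 genes with the largest log2 ratio in monocytes. For likeness, log2(CPM + 10) was correlated over gates and libraries among genes reaching 20 CPM in 1 of them. Values for other gates, T cell subsets and further genes of these lists were chosen after they were seen. The value of 1 list gene is not reported here. Members and lists were chosen with earlier results of these data known. The ratio procedure was tested on simulated data. Python 3.11.15, numpy 2.4.6, scipy 1.17.1, scanpy 1.11.5, R 4.3.3 and edgeR 4.0.16 (TMM factors) were used.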

Additional observations from a re-analysis of the deposited data

Results flagged for a closer look

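Stat3 drew attention because its ratio pointed in opposite directions between gates. The log2 ratio of CPM, IR over Control, was 0.13 in macrophages, 0.29 in mature DCs and 0.52 in stromal cells, and -0.11 in monocytes, -0.14 in T cells and -0.34 in NK cells. With 1 library per group the difference between gates was not tested.

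Barcodes under 100 UMIs, which are mostly empty droplets and entered none of the comparisons, also carried more RNA of several members in IR. Irf7 stood at 69.0 CPM in Control droplets against 342 CPM in IR, Stat2 19.2 and 43.8 CPM, Irf1 133 and 174 CPM, Irf5 106 and 132 CPM, and Irf8 276 and 360 CPM. These genes were picked because their IR interval lay above the Control interval, and the share of all genes for which that holds was not computed. Irf4 went the other way, with 22.2 and 14.5 CPM, a log2 ratio of -0.61 (-1.09 to -0.14) and overlapping levels. The part of droplet RNA in the gate levels was tested only through the subtraction given among the processing alternatives.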

How the results depend on the processing

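For the 52 log2 ratios of the members with at least 20 UMIs, 46 kept their sign in every alternative that gave a value. The 6 that did not were those of Irf1 in NK and T cells, Irf2 in T and stromal cells, Irf4 in mature DCs and Irf8 in T cells. Of 595 alternative values, 557 lay inside the main interval and 38 outside, 21 of the latter with cells thinned to 1000 UMIs, which weights cells equally and leaves fewer UMIs. Thinning left only 20 values inside, and the remaining ratios kept too few UMIs to give a value. Irf7 ranged from 1.62 to 2.05 in monocytes, 2.97 to 3.25 in macrophages, 2.71 to 4.07 in mature DCs, 2.32 to 2.67 in T cells, 1.64 to 2.05 in NK cells and 2.59 to 4.38 in stromal cells. Counts of members past 2-fold are listed only where they changed by more than a factor of 1.5, so changes between 2 and 3 are left out. The count moved from 2 to 1 in monocytes with doubled cutoffs and with monocyte genes not induced by interferon. Thinning gave 1 in macrophages, 1 in mature DCs, 2 in NK cells and 1 in stromal cells, against 2, 2, 1 and 3. Without the UMI minimum NK cells had 2, and a fold of 1.5 gave 4 in mature DCs, 4 in T cells, 4 in NK cells and 5 in stromal cells. The share of all genes past the line was computed for none of these alternatives. The shares given for 2-fold are therefore no background for the counts at 1.5-fold. In Lyz2-low T cells the count was again 2, with Irf5 in the place of Stat2. The cause was not tested. TMM scaling, UMI minimums of 500 and 2000, a mitochondrial limit of 10%, a total without mitochondrial and ribosomal protein genes, and subtraction of droplet background left all 52 ratios inside their intervals. TMM moved ratios by at most 0.06 in the 6 gates and by 0.36 in neutrophils. The Lyz2 limit and the T cell subsets were chosen after seeing the data. No paired analysis was possible because each group consisted of a single library. Leaving out a replicate was not possible for the same reason, and genes with few UMIs, such as Irf4 and Irf9, are limited by counting.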

Other observations

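Gates with fewer than 50 cells in a library held some of the same genes. Neutrophils (27 in Control, 187 in IR) had 171 CPM of Irf7 from 9 UMIs in Control (78.2 to 325) and 537 CPM in IR (489 to 589), a log2 ratio of 1.65 (0.71 to 2.79), in a gate where 13.7% of counted genes were at least 2-fold higher. TMM scaling shifted ratios of that gate by 0.36. In cDC1 Irf7 had 73.8 and 437 CPM, and in cDC2 78.4 and 215 CPM, with intervals apart in both. In the 8 pDC of each library it had 247 CPM (128 to 432) and 443 CPM (290 to 650), and the intervals overlapped. Control pDC, a cell type known for constitutive Irf7, had the highest Control value of the 12 gates, from 12 UMIs, with an interval that overlapped those of neutrophils and monocytes.

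Genes whose levels ran most like each member were sought over 12 points, 6 gates in 2 libraries, among 8436 genes. The points of a library share its depth and background RNA, and the correlations describe these points only. For Irf7 they were Oas3 (Pearson r 0.98), Adar (0.97) and Zbp1 (0.97), for Stat2 Oasl2 (0.98), Ifih1 (0.96) and Dhx58 (0.94), and for Irf9 Ifi27l2a (0.94), Oasl1 (0.94) and Phf11a (0.92). The genes most like Irf8 were 1810058I24Rik (0.98), Epsti1 (0.96) and Slamf7 (0.96), and those most like Irf5 were Csf2rb2 (0.99), Rasa4 (0.99) and Lsr (0.98). Irf1 ran with Osbpl9 (0.94), Rhoa (0.94) and Parp12 (0.94), Irf2 with Cd44 (0.98), Pxk (0.96) and Svil (0.95), Irf4 with Dpp8 (0.96), Areg (0.95) and Lrch1 (0.94), and Stat3 with Ankrd44 (0.98), Pfn1 (0.97) and Fau (0.97).

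Single list genes passed 2-fold outside the monocyte gate. Socs1, a JAK inhibitor, had 60.0 and 123 CPM in macrophages, and Cish had 66.2 and 164 CPM in mature DCs. Stat4 had 2.28 and 5.10 CPM in macrophages and Stat5b 22.3 and 10.8 CPM in stromal cells. Cxcl9 had 31.3 and 2.07 CPM in NK cells, from 73 and 8 UMIs, and 123 and 44.5 CPM in T cells. Monocytes held more Cxcl9, at 570 and 197 CPM, and the part of myeloid RNA in these lymphocyte levels was not tested.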
